A study of Mus musculus with 15 samples.

Results

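Pparg, Ptgs1 and Hpgd, a lipid-sensing regulator and an enzyme at either end of prostaglandin metabolism, were followed through 15 samples of mouse macrophages. They are 3 of the 754 genes counted, and they were chosen by name with their counts in these same samples known. Their levels are therefore a description and carry no test, whereas genes outside the trio were tested across the whole table. Pparg lay high in IL-4-conditioned macrophages with or without nanoparticles, apart from 1 IL4 and 1 IRF5-NP library, and low after MPLA. After scaling for library size, Ptgs1 was higher in every IL-4-conditioned library, with or without nanoparticles, than in any MPLA library, but relative to pan-macrophage markers IL4 2 lay within the MPLA range. Hpgd was near background in every nanoparticle library, whichever mRNA the particles carried, and above that in every IL4 and MPLA library.

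Pparg encodes PPARγ, a nuclear receptor that binds fatty acids and their derivatives, pairs with retinoid X receptors on DNA and, in macrophages, is induced by IL-4 and switches on genes of lipid uptake and alternative activation. Ptgs1 encodes cyclooxygenase 1, the constitutive enzyme that converts arachidonic acid into the common precursor of prostaglandins and thromboxane. Hpgd encodes the NAD-dependent 15-hydroxyprostaglandin dehydrogenase, which oxidises prostaglandins to forms that no longer bind their receptors.

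Bone marrow-derived macrophages (BMDMs), grown from femoral marrow of mice with M-CSF, were profiled on the NanoString nCounter Myeloid Innate Immunity panel, which counts barcoded probes bound to RNA without amplification. M1-like standards had 4 days in 20 ng/mL of monophosphoryl lipid A, which activates Toll-like receptor 4 (MPLA, 4 samples), and M2-like standards had 4 days in 20 ng/mL of IL-4 (IL4, 4 samples). The other samples were IL-4-conditioned BMDMs that also met 1 µg of mannose-targeted nanoparticles for 1 hour, loaded with mRNA of the transcription factor IRF5 (IRF5-NP, 3 samples, numbered 1, 2 and 4) or with control eGFP mRNA (eGFP-NP, 4 samples). By the methods of the study, IRF5 particles also held mRNA of the kinase IKKβ and some eGFP mRNA. The most strongly transfected cells were sorted and, before lysis, put back into IL-4 at a lower dose than the standards had. The standards did not share these steps. The labels give the nanoparticle samples 4 days in 20 ng/mL as well. The nanoparticle amount is that of the labels, and the methods state another. The strain, sex and age of the mice that gave the marrow are not given in the sources used here. The study describes its samples as biologically independent, but several libraries of a group were nearly identical in their counts, the labels name no separate cultures, and p-values measure only the spread between these samples, which may in part be technical.

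The RefSeq promoter windows of the trio (mouse assembly GRCm38.p6, 250 bases before to 50 after a transcript start, plus strand, 5′ to 3′) are shown to set the trio's control regions side by side. Ptgs1 lies on chromosome 2 and Hpgd on chromosome 8, each with 1 window, and Pparg lies on chromosome 6 with 3 windows, of which the one with the most matches is printed. Capitals mark matches, on either strand, to the 7 motifs searched.
Pparg, chr6:115362099-115362398: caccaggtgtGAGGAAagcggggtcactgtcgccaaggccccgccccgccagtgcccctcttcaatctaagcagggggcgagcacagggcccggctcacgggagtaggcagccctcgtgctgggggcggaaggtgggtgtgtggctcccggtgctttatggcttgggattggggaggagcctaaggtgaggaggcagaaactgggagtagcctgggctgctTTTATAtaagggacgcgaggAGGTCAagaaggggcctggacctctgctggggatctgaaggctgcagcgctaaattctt
Ptgs1, chr2:36230176-36230475: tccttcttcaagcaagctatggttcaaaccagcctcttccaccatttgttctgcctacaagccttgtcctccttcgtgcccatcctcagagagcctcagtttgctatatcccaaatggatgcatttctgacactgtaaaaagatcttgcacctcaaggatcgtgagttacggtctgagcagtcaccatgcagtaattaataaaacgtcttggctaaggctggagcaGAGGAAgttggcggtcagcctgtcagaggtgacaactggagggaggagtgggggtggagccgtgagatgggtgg
Hpgd, chr8:56294302-56294601: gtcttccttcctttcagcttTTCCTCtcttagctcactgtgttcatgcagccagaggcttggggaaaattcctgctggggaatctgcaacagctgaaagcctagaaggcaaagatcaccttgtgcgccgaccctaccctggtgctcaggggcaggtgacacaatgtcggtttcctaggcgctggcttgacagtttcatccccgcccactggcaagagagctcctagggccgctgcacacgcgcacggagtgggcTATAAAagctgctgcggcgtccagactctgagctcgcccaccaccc

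The core letters of PU.1, the master regulator of the macrophage lineage, GAGGAA, stood in a window of all 3 genes, with its first base at -24 from the Ptgs1 start, -230 from the Hpgd start and -240 from the Pparg start, and in 28.3% of all 32851 windows. AGGTCA, the core that nuclear receptors bind, was found in the printed Pparg window, at -9 from the start, and in another Pparg window, and in 16.3% of all windows. TATAAA stood at -29 from that Pparg start on the minus strand and 4 bases after the Hpgd start, and in 13.6% of all windows. The C/EBP letters TTGCNNAA were found 2 times in the remaining Pparg window, and in 10.8% of all windows. No window of the trio held the STAT6 motif TTCNNNNGAA (6.95% of all windows), the interferon regulatory factor motif (3.44%) or the kappa B motif (8.46%). These are matches of letters in 300 bases. The printed Pparg, Ptgs1 and Hpgd windows held 62.7%, 50.7% and 58.0% G or C, against a median of 52.7% over all windows.

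Total gene counts ran from 266169 in IRF5-NP 4 to 1784833, and background (the mean of 8 negative controls plus 2 SD) from 19.7 to 34.9 counts. Counts of eGFP-NP 1 and 2 could not be told apart from sampling noise (chi-square per degree of freedom 1.09), and they were summed as eGFP-NP 1-2 and counted as 1 sample, so eGFP-NP has n = 3. MPLA 1 with 4, MPLA 2 with 3, IRF5-NP 1 with 2 and eGFP-NP 3 with 4 were nearly as close (1.37 to 2.56, against 41.4 or more for all other pairs of a group), may be technical repeats and were kept separate, which narrows the SD of these groups; IL4 had no such pair. Of 12 pan-macrophage markers on the panel, 11 were above background in every MPLA and IL4 library and 10 in every IRF5-NP library, with Aif1 above it nowhere. The 7 fibroblast markers on the panel split the libraries: their mean was 4.08 to 4.2 log2 CPM in IL4 3, IRF5-NP 1 and 2 and eGFP-NP 1-2, and 9.45 to 11.9 in the other 10 libraries, MPLA highest. None of the 6 adipocyte and 6 megakaryocyte markers listed, of cells that also make Pparg or Ptgs1, was on the panel. Fabp4 and Pf4, which macrophages can share with those cells and which the lists did not hold, were above background in 14 of 14 libraries (6.37 to 10.75 and 5.89 to 9.12 log2 CPM). In these bulk lysates, fewer cells of a type and less RNA per cell cannot be told apart.

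Pparg counts were 69, 63, 93 and 81 in MPLA 1 to 4 and 591, 63, 451 and 603 in IL4 1 to 4. They were 589, 528 and 34 in IRF5-NP 1, 2 and 4, and 396, 417, 665 and 605 in eGFP-NP 1 to 4. All 15 samples were above background, IRF5-NP 4 barely so (background 32.4 counts). After scaling, Pparg was 5.40 ± 0.199 log2 CPM in MPLA (SD, n = 4), 7.97 ± 1.62 in IL4 (n = 4), 8.06 ± 1.58 in IRF5-NP (n = 3) and 9.10 ± 0.521 in eGFP-NP (n = 3). The wide spread in IL4 and IRF5-NP came from a library apiece. IL4 2 stood at 5.55, inside the MPLA range of 5.23 to 5.65, while the other IL4 libraries held 8.53 to 9.03. IRF5-NP 4, the library with the lowest total, stood at 6.24, against 9.03 and 8.93 in its partners. In the order of means (eGFP-NP, IRF5-NP, IL4, MPLA), the libraries of every neighbouring pair overlapped.

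Ptgs1 counts were 920, 589, 663 and 854 in MPLA 1 to 4 and 1137, 899, 1681 and 4514 in IL4 1 to 4. They were 1854, 1755 and 512 in IRF5-NP 1, 2 and 4, and 2288, 2310, 1539 and 1323 in eGFP-NP 1 to 4. Every sample was far above background. Scaled levels were 8.65 ± 0.253 log2 CPM in MPLA (SD, n = 4), 10.35 ± 0.898 in IL4 (n = 4), 10.49 ± 0.316 in IRF5-NP (n = 3) and 10.71 ± 0.248 in eGFP-NP (n = 3). Each IL-4-conditioned library, at 9.34 to 11.43, lay above each MPLA library, at 8.42 to 8.91. Relative to the mean of the pan-macrophage markers this did not hold for IL4 2, which at -1.57 log2 units lay within the MPLA libraries (-2.0 to -1.44), while the other IL-4-conditioned libraries held -0.43 to 1.14. Among the IL-4-conditioned groups the order of means was eGFP-NP, IRF5-NP, IL4, and their libraries overlapped. The IL4 libraries held both the lowest value (IL4 2) and the highest (IL4 4) of these groups.

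Hpgd counts were 249, 148, 160 and 275 in MPLA 1 to 4 and 879, 988, 132 and 356 in IL4 1 to 4. They were 56, 51 and 20 in IRF5-NP 1, 2 and 4, and 49, 52, 37 and 31 in eGFP-NP 1 to 4. The count of 20 in IRF5-NP 4 was below its background of 32.4, and the other nanoparticle samples, at 31 to 56 counts, lay above backgrounds of 19.7 to 33.9. Scaled levels were 8.46 ± 1.29 log2 CPM in IL4 (SD, n = 4), 6.77 ± 0.402 in MPLA (n = 4), 5.59 ± 0.0908 in IRF5-NP (n = 3) and 5.33 ± 0.177 in eGFP-NP (n = 3). Near background these counts also hold nonspecific signal. Hpgd was the member of the trio whose nanoparticle libraries, at 5.22 to 5.67, lay below every IL4 library, at 6.99 to 9.60, and every MPLA library, at 6.41 to 7.20. IL4 and MPLA overlapped, through IL4 3 at 6.99, and so did the nanoparticle groups. Relative to the mean of the pan-macrophage markers, the nanoparticle libraries stayed lowest only narrowly. IRF5-NP 4 stood at -4.12 log2 units and eGFP-NP 4 at -4.22, against -4.09 in IL4 3 and -3.98 in MPLA 2. The place of IRF5-NP 4 rests on the scaling between libraries: in plain CPM (counts over the total count), its Hpgd was 75.1, near the 84.5 of IL4 3 and the 91.4 of MPLA 2, whereas the other nanoparticle samples held 33.1 to 44.4.

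**Figure D1:**
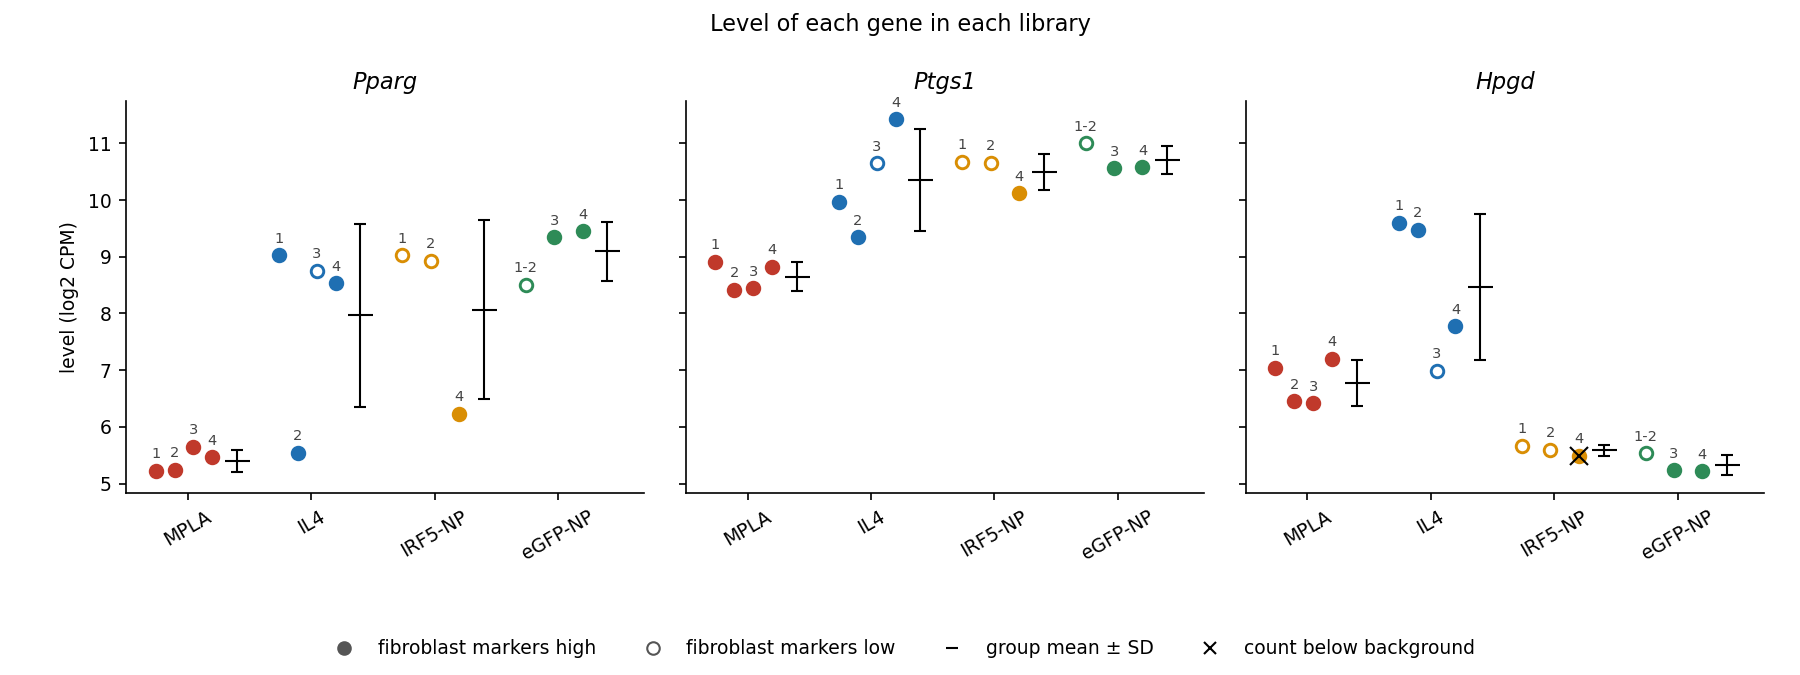
Levels of Pparg, Ptgs1 and Hpgd (y axis, log2 CPM) in the 14 libraries, by group on the x axis; points are libraries with their replicate number, open points are the 4 libraries low in fibroblast markers, bars are mean ± SD, and the cross marks a count below background. Pparg was low in MPLA, IL4 2 and IRF5-NP 4, Ptgs1 was lowest in MPLA, and Hpgd lay at 5.22 to 5.67 in the nanoparticle libraries, below all others.

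Between the standards, the fit over all 754 genes gave MPLA minus IL4 log2 differences of -3.04 ± 0.645 (SE) for Pparg, -1.88 ± 0.445 for Ptgs1 and -2.03 ± 0.591 for Hpgd. edgeR's quasi-likelihood test called 3 of the 3, where it called 26.4% of all genes, and since the genes were chosen on these values nothing is read from that count. Groups did not overlap for 1 of the 3, Ptgs1, against 15.1% of all genes lower in MPLA without overlap. The calls were fragile. Leaving out MPLA 1 ended all 3 (log2 differences of -2.99, -1.97 and -2.11), leaving out MPLA 2, 3 or 4 ended those of Ptgs1 (-1.93 to -1.81) and Hpgd (-2.18 to -1.91), and leaving out IL4 1 or IL4 2 ended that of Hpgd (-1.63 and -1.75). Over all alternatives the Hpgd call held in 9 of 22, and it was also lost by total count, with background subtracted, by limma and by the methods' t-test. With the fibroblast markers as a covariate the calls of Pparg (-2.67) and Ptgs1 (-1.63) were lost. None was called when the 4 further pairs of nearly identical libraries were also merged.

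The nanoparticle groups were next set against the IL4 standards, from which they also differ by sorting and by a lower dose of IL-4 before lysis. In the differences below, particles, sorting and IL-4 dose cannot be told apart. IRF5-NP differed from IL4 by -0.05 ± 0.877 log2 units for Pparg, -0.18 ± 0.561 for Ptgs1 and -3.40 ± 0.748 for Hpgd (SE). eGFP-NP differed from the same IL4 libraries by 0.61 ± 0.720 for Pparg, 0.02 ± 0.543 for Ptgs1 and -3.68 ± 0.757 for Hpgd. edgeR called 0 of the 3 in either comparison, where it called 0.0% of all genes (at an unadjusted p under 0.05 it had 53 genes for IRF5-NP and 84 for eGFP-NP). DESeq2 called 19 and 53 genes, Hpgd among them both times, and so did the fit of all groups together (2 and 17 genes) and, for eGFP-NP, the fit with all libraries separate (6 genes). Libraries did not overlap for 1 of the 3, Hpgd, beside 4.38% of all genes lower in IRF5-NP and 6.9% lower in eGFP-NP without overlap. Nothing is read from these calls and counts, since the gene was chosen on these values. The differences of Pparg depended on the setting. They were -1.12 for IRF5-NP and 0.59 for eGFP-NP with the fibroblast markers as a covariate, and 0.21 and 1.79 relative to the pan-macrophage markers, where Ptgs1 differed by 0.25 and 1.02. The comparisons share their IL4 libraries and are not independent of each other.

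Between the cargoes, IRF5-NP minus eGFP-NP was -0.71 ± 0.679 for Pparg, -0.20 ± 0.281 for Ptgs1 and 0.29 ± 0.267 for Hpgd (log2, SE). All 3 genes overlapped between these groups, and edgeR called 0 of the 3 and 0.0% of all genes (42 genes at an unadjusted p under 0.05; DESeq2 called 7). With the replicate number as a block, and eGFP-NP 1 and 2 kept separate, 0 genes were called. The differences were then -0.60 for Pparg, -0.43 for Ptgs1 and 0.10 for Hpgd. Whether the numbers pair these groups is not known, and blocks 1 and 2 nearly repeat each other. Relative to the pan-macrophage markers the differences were -1.59, -0.77 and -0.29. By number, Ptgs1 was lower in IRF5-NP 1 and 2 (10.68 and 10.66) than in eGFP-NP 1-2 (11.00) and in IRF5-NP 4 (10.12) than in eGFP-NP 4 (10.58). Hpgd was higher in IRF5-NP 1 and 2 (5.67 and 5.60) than in eGFP-NP 1-2 (5.53) and in IRF5-NP 4 (5.49, below background) than in eGFP-NP 4 (5.22). Pparg was higher in IRF5-NP 1 and 2 (9.03 and 8.93) than in eGFP-NP 1-2 (8.50) and lower in IRF5-NP 4 (6.24) than in eGFP-NP 4 (9.45).

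Against the MPLA standards, the trio split by direction. In IRF5-NP, Pparg was 3.16 ± 0.561 and Ptgs1 1.92 ± 0.197 log2 units higher, while the difference of Hpgd was -1.17 ± 0.268. In eGFP-NP, Pparg was 3.75 ± 0.276 and Ptgs1 2.02 ± 0.211 higher, while the difference of Hpgd was -1.55 ± 0.280. No gene of the trio overlapped with MPLA. edgeR called 3 of the 3 in each comparison, beside 24.4% of all genes for IRF5-NP and 19.6% for eGFP-NP. Higher without overlap were 17.1% and 16.6% of all genes, and lower without overlap 30.5% and 23.6%. The call of Hpgd in IRF5-NP was lost without MPLA 1 (-1.07), MPLA 4 (-1.0), IRF5-NP 1 (-1.15) or IRF5-NP 2 (-1.14), and in eGFP-NP without eGFP-NP 3 (-1.42). All were lost when the nearly identical pairs were merged. With the fibroblast markers as a covariate the Pparg difference of IRF5-NP was 0.58 and that of Hpgd -1.04, and both calls were lost. Over all alternatives the Hpgd call of IRF5-NP held in 7 of 21, and it was also lost by total count, by upper quartile, with a low-count filter and with background subtracted. Both comparisons use the same MPLA libraries.

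**Figure D2:**
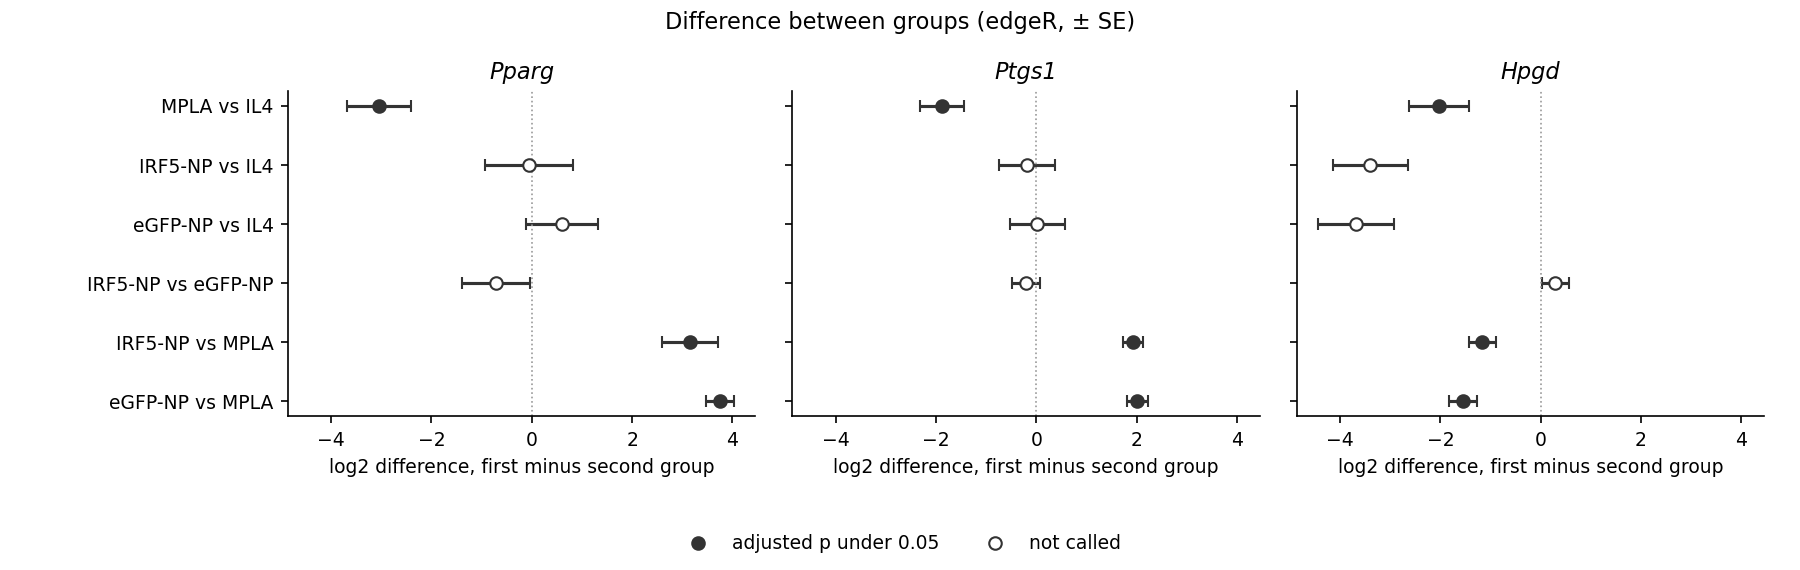
Log2 difference of Pparg, Ptgs1 and Hpgd (x axis, first minus second group, bars ± SE) in the 6 comparisons (y axis); filled points were called at an adjusted p under 0.05 over all 754 genes, open points were not. Against IL4, IRF5-NP and eGFP-NP sit at -0.05 and 0.61 for Pparg (-1.12 and 0.59 with the fibroblast covariate, 0.21 and 1.79 relative to pan-macrophage markers), at -0.18 and 0.02 for Ptgs1 and at -3.40 and -3.68 for Hpgd.

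Ptgs1 and Hpgd RNA were set against each other as a ratio within each library, which does not depend on scaling between libraries. Since the genes have different probes, only changes of the ratio have meaning. It leaves out Ptgs2, the inducible cyclooxygenase, whose group means were 10.07 log2 CPM in MPLA, 8.25 in IL4, 7.21 in IRF5-NP and 9.42 in eGFP-NP. Count ratios were 3.69, 3.98, 4.14 and 3.11 in MPLA 1 to 4, and 1.29, 0.91, 12.7 and 12.7 in IL4 1 to 4. They were 33.1, 34.4 and 25.6 in IRF5-NP 1, 2 and 4, and 45.5, 41.6 and 42.7 in eGFP-NP 1-2, 3 and 4. Every nanoparticle library exceeded every standard. With Hpgd of IRF5-NP 4 set to its background, that library's ratio was at least 15.8, still above the standards. On the log2 scale the ratio was 1.88 ± 0.180 in MPLA (SD, n = 4), 1.89 ± 2.05 in IL4 (n = 4), 4.90 ± 0.234 in IRF5-NP (n = 3) and 5.38 ± 0.0730 in eGFP-NP (n = 3). MPLA and IL4 had nearly the same mean ratio with very unequal spread: IL4 1 and 2 lay below all MPLA libraries, and IL4 3 and 4 above them.

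**Figure D3:**
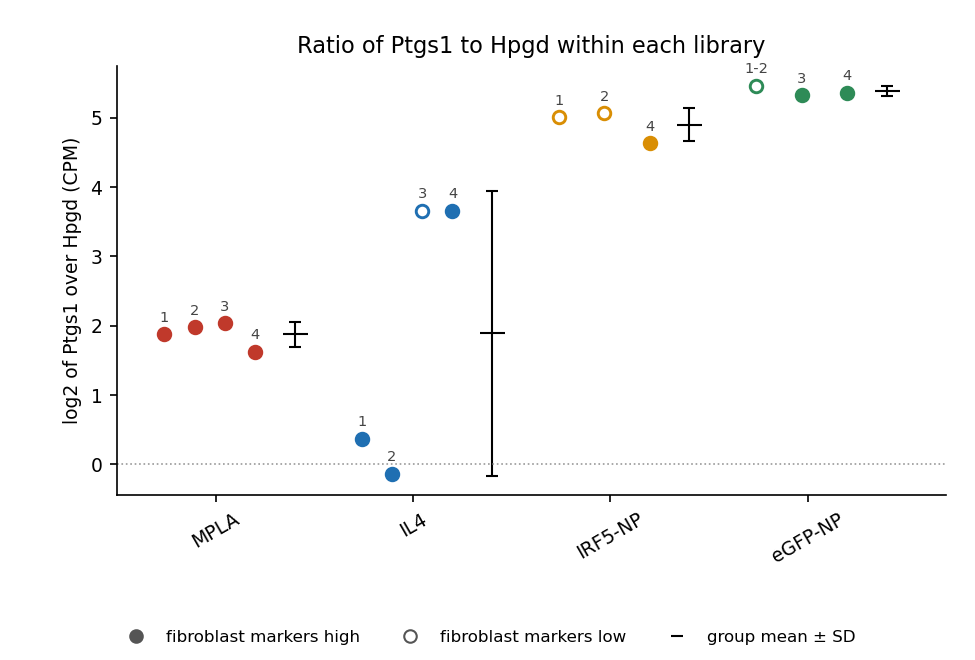
Log2 ratio of Ptgs1 to Hpgd (y axis) in each of the 14 libraries, by group on the x axis; points are libraries with their replicate number, open points are libraries low in fibroblast markers, and bars are mean ± SD. The nanoparticle libraries sit at 4.63 to 5.46, all above the IL4 and MPLA libraries, which reach 3.66.

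The fibroblast markers moved with some of these values, and their part in them was not tested. Within the low-marker libraries Hpgd was 6.99 in IL4 3, against 5.60 and 5.67 in IRF5-NP 2 and 1 and 5.53 in eGFP-NP 1-2. Within the high-marker libraries it was 7.78 to 9.60 in the 3 IL4 libraries, against 5.49 in IRF5-NP 4, 5.23 in eGFP-NP 3 and 5.22 in eGFP-NP 4. The low-marker side has a single IL4 library. Ptgs1 was 10.65 to 11.00 in the low-marker libraries of all 3 IL-4-conditioned groups, and 9.34 to 11.43 in their high-marker libraries. Pparg was 8.50 to 9.03 in the 4 low-marker libraries, whereas the high-marker libraries held its whole range, from 5.23 in MPLA 1 to 9.45 in eGFP-NP 4. MPLA had the most fibroblast marker signal of all (11.8 to 11.9), so for MPLA the agonist and the fibroblast markers cannot be told apart. Mast cell markers, of another cell type that makes prostaglandins, were on the panel for 6 of 7 genes, of which 4 or 5 were above background in no library of a group, and their mean was 2.97 to 4.74 log2 CPM. The 8 neutrophil markers were highest in MPLA, with a summed count of 785 to 1643 a library, while IL4 libraries held 175 to 299, IRF5-NP libraries 110 to 203 and eGFP-NP libraries 134 to 199, and 5, 3, 6 and 5 of them were above background in no library of these groups. The 4 dendritic cell markers had a mean of 3.10 to 3.31 log2 CPM in MPLA and 4.33 to 5.86 in IL4, while IRF5-NP libraries held 4.34 to 4.76 and eGFP-NP libraries 3.98 to 4.58, and 3, 0, 3 and 3 of them were above background in no library. Their part in the differences between groups was not tested. The means were 3.07 to 5.30 for 2 endothelial markers and 3.44 to 5.09 for 1 lymphocyte marker, each above background in some IL4 libraries only.

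**Figure D4:**
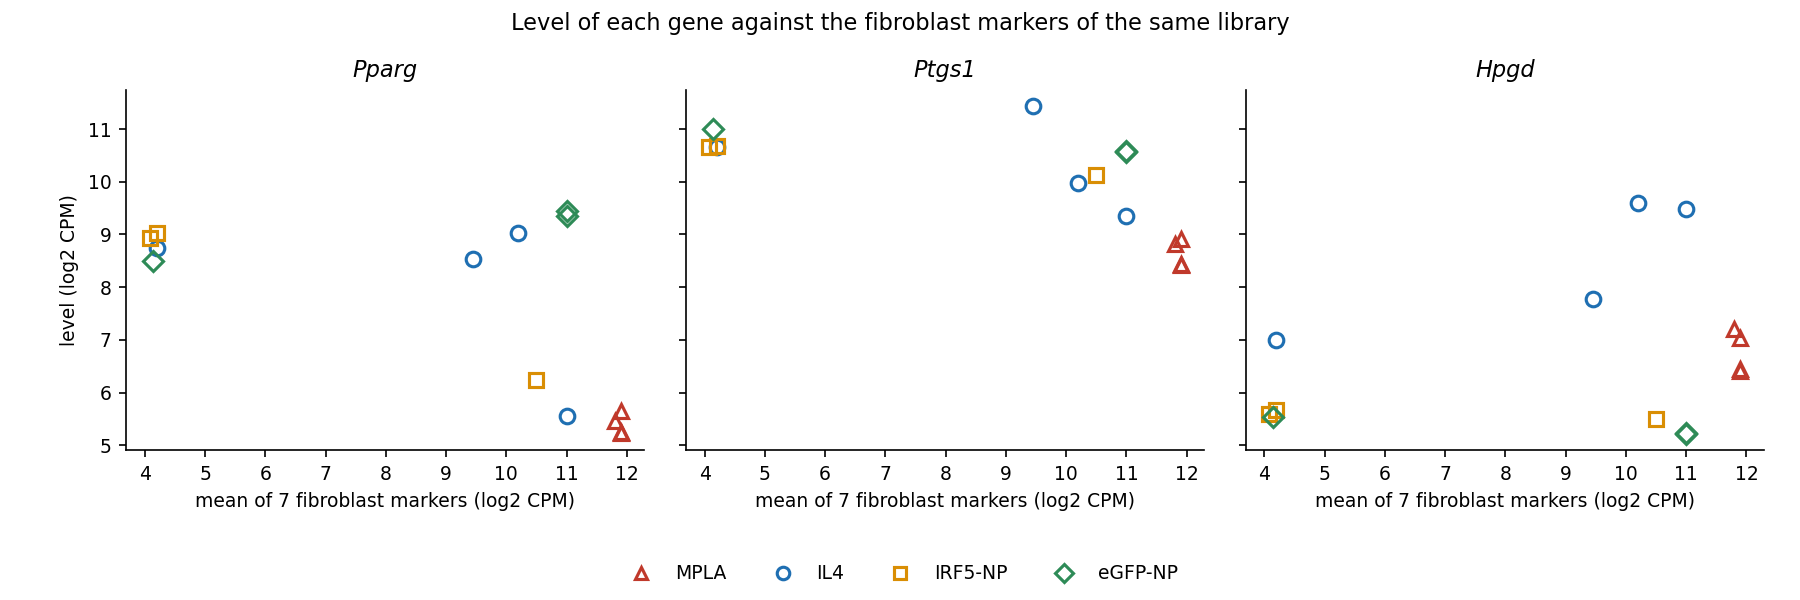
Levels of Pparg, Ptgs1 and Hpgd (y axis, log2 CPM) against the mean of 7 fibroblast markers in the same library (x axis, log2 CPM); each point is 1 of 14 libraries, with shape and colour for the group. Hpgd lies at 5.22 to 5.67 in the nanoparticle libraries and at 6.99 to 9.60 in the IL4 libraries, of which 1 is low in the markers.

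Likeness to each member was described by Pearson's r of log2 CPM over the 14 libraries, among 549 genes above background in at least 7 of them; these libraries share groups, fibroblast content and depth, and Spearman's rho and the r of deviations from group means stand beside it. Most like Pparg were Klf10 (0.922, rho 0.697, within groups 0.816), Chil3 (0.895, 0.688, 0.775), Egr2 (0.895, 0.662, 0.810), Chil4 (0.890, 0.657, 0.761) and Clec7a (0.870, 0.644, 0.745), among them the chitinase-like proteins of IL-4-conditioned macrophages and Dectin-1, a receptor for fungal glucans. As this choice by r favours, all 5 were lowest of their group in IL4 2 and in IRF5-NP 4, the libraries where Pparg was low. They differed from Pparg in eGFP-NP 1-2, where all 5 were highest of their group and Pparg was lowest. Most like Ptgs1 were Flt1 (0.897, 0.899, 0.581), Gata6 (0.885, 0.723, 0.651), Pparg itself (0.863, 0.600, 0.566), Cytip (0.853, 0.899, 0.547) and Chil4 (0.852, 0.846, 0.595). Flt1 encodes a receptor of vascular endothelial growth factor, and Gata6 the transcription factor of resident peritoneal macrophages.

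Most like Hpgd were C1qb (0.808, rho 0.754, within groups 0.273) and C1qa (0.754, 0.644, 0.299), subunits of complement C1q, the costimulatory receptor Cd40 (0.762, 0.776, 0.629), Tnfrsf14 (0.769, 0.811, 0.224) and Sfrp4 (0.764, 0.473, 0.765), a secreted Wnt antagonist. In IL4 2, where Pparg was lowest of its group, 4 of these 5 genes were highest. Hpgd had an r of -0.257 to Pparg (rho -0.415, within groups -0.319) and -0.251 to Ptgs1 (rho -0.266, within groups -0.546).

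Few other genes of the prostaglandin pathway were on the panel. Of the list of prostaglandin synthesis and breakdown (18 genes without the trio), Ptgs2, Hpgds, Ptgds and Cbr1 were present, and edgeR called 0 of these 4 in each of the 6 comparisons, beside 0.0% to 26.4% of all genes, with median log2 differences of -0.13 to 0.15. At an unadjusted p under 0.05 it had 1 of the 4 in MPLA against IL4 and in either nanoparticle group against MPLA and 0 in the others, and DESeq2 called 1, Ptgds, in IRF5-NP against MPLA, as edgeR did by upper quartile scaling and with all groups in 1 fit. In eGFP-NP against MPLA, edgeR called Ptgds by upper quartile scaling and with DESeq2's size factors. With the fibroblast markers as a covariate, edgeR called 62.5% of all genes in IRF5-NP against MPLA and 55.7% in eGFP-NP against MPLA, and the prostaglandin genes were among them. In IRF5-NP these were all 4, with Ptgs2 at 2.16 (from -0.66 without the covariate) and Ptgds at 3.30 (from 1.56) higher, and Hpgds at -1.25 (from 0.10) and Cbr1 at -0.53 (from -0.25) lower. In eGFP-NP they were Ptgs2, at 1.49 (from 0.27), and Hpgds, at -1.06 (from -0.31). Without the covariate but with IRF5-NP 4 left out, edgeR called Ptgs2 in IRF5-NP against MPLA in the other direction (-4.81), and also called Hpgds. The 4 MPLA libraries differ little in these markers (11.8 to 11.9), so in IRF5-NP against MPLA the covariate separates mainly IRF5-NP 4 from its partners. Ptgs2, the inducible cyclooxygenase, had the widest range: MPLA libraries held 9.40 to 10.77 log2 CPM, IL4 libraries 5.85 to 10.57, IRF5-NP libraries 5.26 to 10.78 and eGFP-NP libraries 6.10 to 11.09. Its low libraries were the 4 with few fibroblast marker counts and IL4 1. Hpgds, the prostaglandin D synthase of hematopoietic cells, was 8.99 ± 0.0911 in MPLA (SD, n = 4), 8.90 ± 0.367 in IL4 (n = 4), 8.87 ± 0.958 in IRF5-NP (n = 3) and 8.58 ± 0.768 in eGFP-NP (n = 3). Cbr1, a carbonyl reductase that also acts on prostaglandins, had log2 differences of -0.32 to 0.22 over the 6 comparisons. Ptgds, the lipocalin-type synthase, was above background nowhere. Of 9 prostanoid receptors, Ptger2, Ptgdr and Ptgdr2 were present, and edgeR called 0 of 3 in each comparison (medians of -0.46 to 0.52) and had none of them at an unadjusted p under 0.05. Ptgdr2 was called by DESeq2 in IRF5-NP against MPLA, and edgeR called Ptger2 in eGFP-NP against MPLA with upper quartile scaling, a low-count filter or the covariate (0.64). With the covariate Ptgdr (1.53) and Ptgdr2 (3.40) were called higher in IRF5-NP against MPLA. Ptger2, a receptor for prostaglandin E, was 6.09 to 6.72 in the group means, and the receptors for prostaglandin D were above background in at most 2 libraries of a group.

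The lipoxygenase branch, the other route from arachidonic acid, had 7 of 10 listed genes on the panel. In MPLA against IL4, 1 was called higher and 2 lower, beside 26.4% of all genes called. Alox5, which starts leukotriene synthesis, was 1.88 ± 0.420 higher (log2, SE, adjusted p = 0.0151, edgeR), a call lost without MPLA 1 or MPLA 4 (1.65 to 2.29 over the libraries left out). Cysltr1, a cysteinyl leukotriene receptor, differed by -0.67 ± 0.203 (adjusted p = 0.0434, edgeR; lost without any MPLA library or IL4 1), and Ltb4r1, a leukotriene B receptor, was above background in 0 of 4 MPLA and 4 of 4 IL4 libraries (adjusted p = 0.0237, edgeR; lost without MPLA 1, 2 or 4). With the fibroblast markers as a covariate all 3 calls were lost (1.71 for Alox5, -0.75 for Cysltr1 and -0.84 for Ltb4r1). Merging the nearly identical pairs also ended them, and left edgeR with no call in either nanoparticle group against MPLA. In IRF5-NP against MPLA, where 24.4% of all genes were called, Ltb4r1, Ltb4r2 and Alox15 were called higher, but Alox15 was above background in no library and Ltb4r1 in only 1 of 3 IRF5-NP libraries, Ltb4r2 in 2 of 3. All 3 calls were lost without IRF5-NP 2, that of Ltb4r1 also without MPLA 1, and that of Alox15 without any library but IRF5-NP 4, and the calls of Ltb4r2 and Alox15 were lost with the covariate. In eGFP-NP against MPLA, where 19.6% of all genes were called, edgeR called 0 of the 7 (2 at an unadjusted p under 0.05), and DESeq2 called Ltb4r1 and Ltb4r2. With the covariate 3 of the 7 were called lower there, Alox5 (-3.33, from -1.38), its activating protein Alox5ap (-1.08, from 0.13) and Cysltr1 (-1.74, from -0.65), beside 55.7% of all genes. In IRF5-NP against MPLA the covariate gave calls of Alox5ap (-0.90, from 0.56) and Lta4h (-0.30, from -0.08), beside 62.5% of all genes. Without the covariate but with IRF5-NP 4 left out, edgeR called Alox5ap, Alox5 and Cysltr1 there. The Alox5ap difference reached 1.04, by upper quartile scaling. Among the IL-4-conditioned groups both tools called 0, with at most 1 of the 7 at an unadjusted p under 0.05 in edgeR. The medians over the 7 genes were -0.21 to 0.56, beside medians of -0.14 to 0.11 over all genes.

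Of 22 listed partners and co-regulators of PPARγ, Nr1h3, Ncor1, Cebpa, Cebpb, Klf4 and Stat6 were on the panel (medians of -0.12 to 0.17). Ncor1, a corepressor of nuclear receptors, was 0.79 ± 0.219 higher in MPLA than in IL4 (log2, SE, adjusted p = 0.0334, edgeR), the opposite side from Pparg; without any of the MPLA libraries or IL4 1 the call was lost (0.66 to 0.91), as it was with the fibroblast covariate (0.53). Cebpa, which with PPARγ drives fat cell differentiation, was 1.17 ± 0.232 higher in eGFP-NP than in MPLA (adjusted p = 0.0162, edgeR; lost without MPLA 1, 2 or 3, range 0.98 to 1.37). Cebpb differed there by -0.95 ± 0.228 and Klf4 by -0.85 ± 0.219, and Klf4 differed by -0.85 ± 0.203 in IRF5-NP against MPLA, calls with an adjusted p of 0.0293, 0.0381 and 0.0282 (edgeR). The calls of eGFP-NP were lost without any MPLA library, eGFP-NP 3 or eGFP-NP 4 (-1.14 to -0.75 for Cebpb and -0.96 to -0.56 for Klf4), and that of IRF5-NP without any library but IRF5-NP 4. With the nearly identical pairs merged, the call of Ncor1 was lost, as were these calls of the nanoparticle groups. Stat6, the transducer of the IL-4 receptor, and Nr1h3, the liver X receptor of macrophages, were called in 0 of the 6 comparisons by DESeq2. In edgeR's fit of all libraries without a covariate, neither was called. With IRF5-NP 4 left out, edgeR called both in IRF5-NP against MPLA. With the fibroblast covariate edgeR called all 6 genes lower in IRF5-NP against MPLA, Stat6 at -0.54 (from 0.36), Nr1h3 at -0.91 (from 0.30), Cebpa at -1.27 (from 1.32), Ncor1 at -1.01, Cebpb at -0.41 and Klf4 at -0.32, beside 62.5% of all genes. In eGFP-NP against MPLA it called Ncor1 (0.29) beside Cebpa, Cebpb and Klf4. Without the covariate, Cebpa in IRF5-NP against MPLA was called by upper quartile scaling (1.815), by DESeq2 and with IRF5-NP 4 left out. DESeq2 called 4 of the 6 genes there.

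Lipid handling genes linked to PPARγ, were on the panel for 9 of 30 listed. In MPLA against IL4, 4 of the 9 were called lower and 0 higher, beside 26.4% of all genes called, with a median of -0.91 beside -0.05 over all genes. They were Cd36, the fatty acid scavenger receptor (-2.82 ± 0.691, adjusted p = 0.0220, edgeR), Lpl, which releases fatty acids from lipoproteins (-1.50 ± 0.417, adjusted p = 0.0334, edgeR), Tgm2, a transglutaminase (-1.59 ± 0.423, adjusted p = 0.0306, edgeR) and Lgals3, a galectin (-1.59 ± 0.499, adjusted p = 0.0475, edgeR). Leaving out any MPLA library ended all 4 calls, leaving out IL4 1 those of Lpl and Lgals3, and leaving out IL4 3 or IL4 4 that of Lgals3, with differences of -3.15 to -1.62 for Cd36, -1.73 to -1.06 for Lpl, -1.84 to -1.08 for Tgm2 and -1.93 to -1.29 for Lgals3 over all libraries left out. With the fibroblast markers as a covariate all 4 calls were lost (-1.01 for Cd36, -0.73 for Lpl, -1.75 for Tgm2 and -0.82 for Lgals3). They were also lost with the nearly identical pairs merged, where edgeR called no gene in either nanoparticle group against MPLA. Cd36 was higher in IRF5-NP than in MPLA by 4.47 ± 0.923 (adjusted p = 0.0190, edgeR) and in eGFP-NP by 3.58 ± 0.816 (adjusted p = 0.0258, edgeR). With the covariate the differences were -0.31 in IRF5-NP, where the call was lost, and 1.38 in eGFP-NP. DESeq2 gave no adjusted p for Cd36 in MPLA against IL4 or in eGFP-NP against MPLA, so it could not call the gene there. Its level was 14.50 to 15.18 log2 CPM in the 4 libraries with few fibroblast marker counts and 11.65 to 12.05 in IL4 1, 2 and 4 and eGFP-NP 3 and 4, with 10.54 in IRF5-NP 4 and 10.01 to 10.30 in MPLA. Pparg in the same libraries was 8.50 to 9.03 in the low-marker set, 9.35 and 9.45 in eGFP-NP 3 and 4, 9.03, 5.55 and 8.53 in IL4 1, 2 and 4, 6.24 in IRF5-NP 4 and 5.23 to 5.65 in MPLA.

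In eGFP-NP against MPLA, Lpl (1.72 ± 0.441, adjusted p = 0.0361, edgeR) and Lgals3 (1.76 ± 0.474, adjusted p = 0.0425, edgeR) were also called higher. The calls of eGFP-NP for Cd36, Lpl and Lgals3 ended without any MPLA library (1.85 to 4.16 for Cd36, 1.03 to 2.12 for Lpl and 0.92 to 2.19 for Lgals3 over all libraries left out), and that of Cd36 in IRF5-NP without any library but IRF5-NP 4 (4.06 to 5.01). With the covariate the eGFP-NP differences were 0.74 for Lpl and 0.61 for Lgals3, both still called, and Fabp4 (1.90), Lipa (0.36) and Tgm2 (-0.85, from 0.13) were called as well, beside 55.7% of all genes. In IRF5-NP against MPLA the covariate gave 6 calls, beside 62.5% of all genes, of Lpl (-1.06, from 2.2), Lgals3 (-1.14, from 2.01), Lipa (-0.63, from 1.66), Tgm2 (-1.15, from 0.75), Fabp4 (-1.01, from -0.11) and Olr1 (3.8, from 1.58). Without the covariate, Lpl, Lipa and Lgals3 were called by upper quartile scaling, a low-count filter, DESeq2 and with IRF5-NP 4 left out. Their highest differences were 2.70, 2.15 and 2.51. DESeq2 called 5 of the 9 there. Against IL4, and between the cargoes, edgeR and DESeq2 called 0 of the 9, with 0 at an unadjusted p under 0.05 in edgeR (medians of 0.24 for IRF5-NP, 0.06 for eGFP-NP and 0.33 between them).

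**Figure D5:**
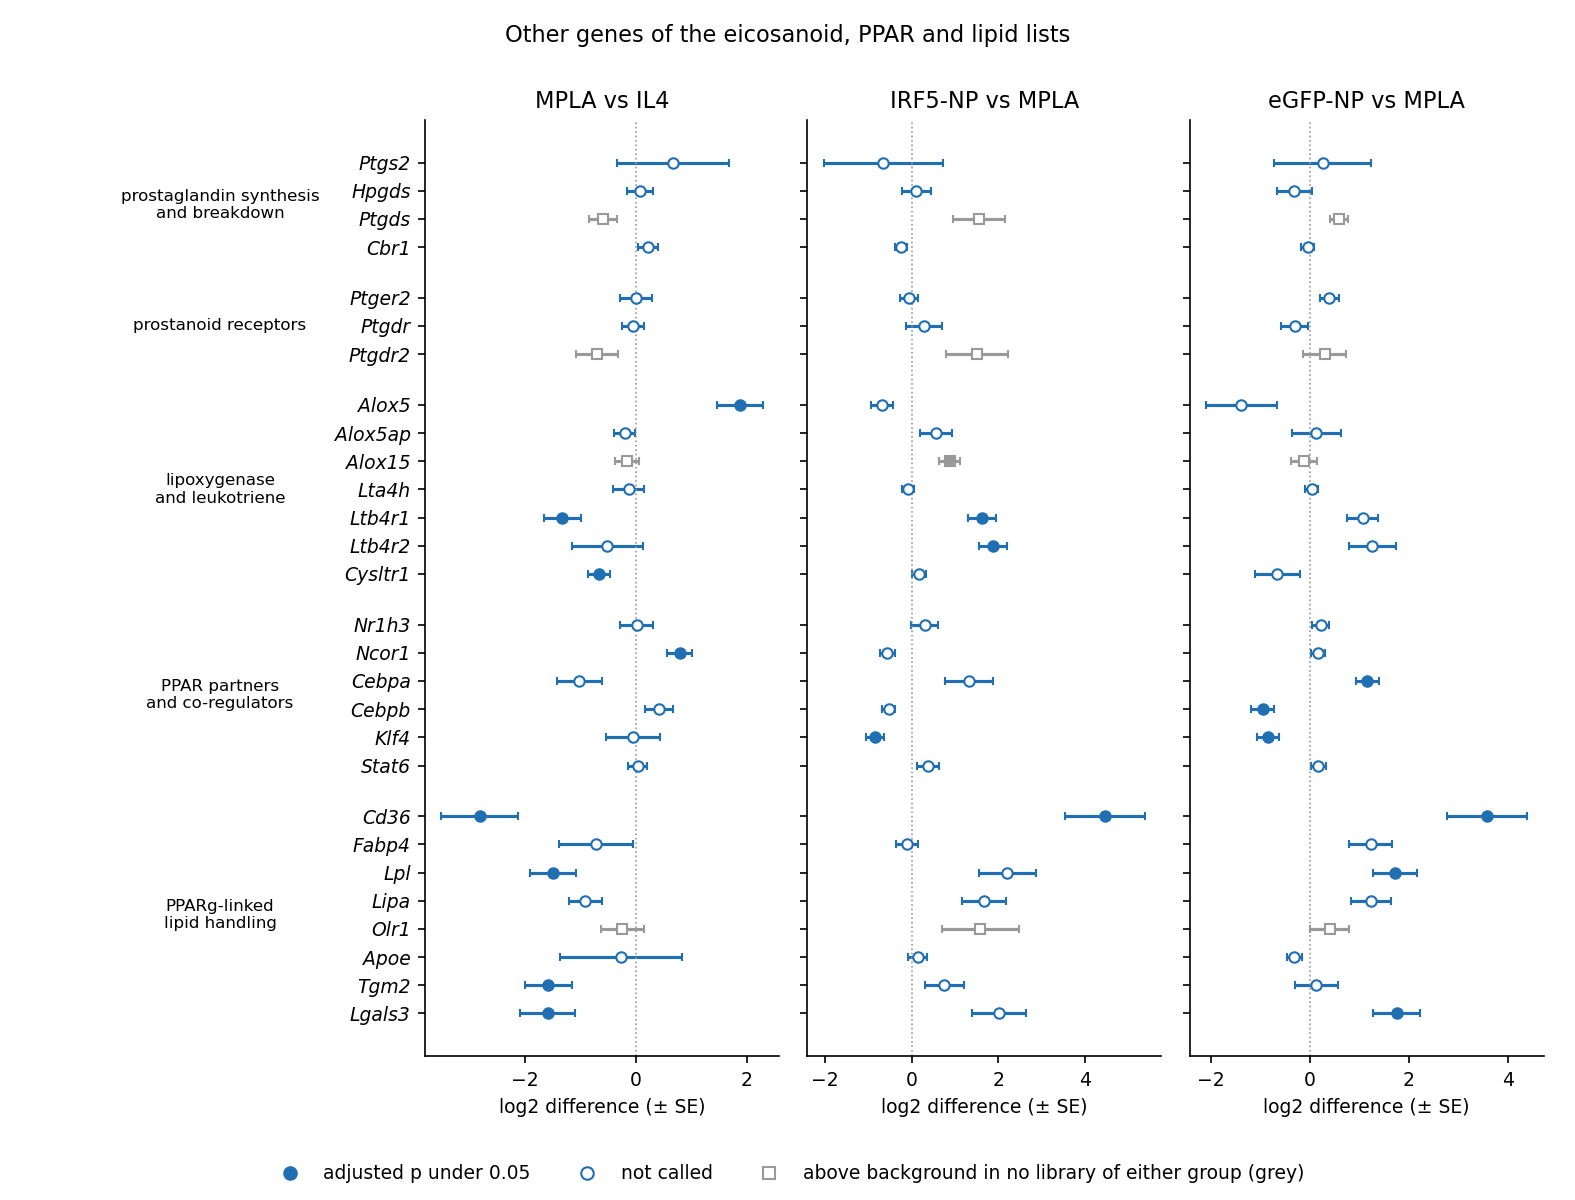
Log2 difference (x axis, ± SE) of other genes of the prostaglandin, prostanoid receptor, lipoxygenase, PPAR partner and lipid handling lists (y axis) in MPLA against IL4 and in either nanoparticle group against MPLA; filled symbols were called at an adjusted p under 0.05, and grey squares were above background in no library of either group. In this fit, which has no covariate, edgeR called no prostaglandin or prostanoid receptor gene, while Cd36 was called in all 3 panels (-2.82, 4.47 and 3.58).

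The IL-4 response list, 21 of 28 genes on the panel without the trio, holds genes of the IL-4 response in macrophages. Among them are the receptor and signalling genes Il4ra, Jak3 and Stat6. Tgm2, Alox15 and Stat6 are also in the lists above, so a call of any of them counts in both. In MPLA against IL4, 16 of the 21 were called lower and 0 higher (median -2.92), beside 26.4% of all genes called. With the nearly identical pairs merged, only the calls of Arg1 and Ccl24 were kept. Retnla, Rnase2a and Ear3 were above background in 0 of 4 MPLA and 4 of 4 IL4 libraries, and Chil3 in 0 and 3. In IRF5-NP against MPLA 12 were called higher and in eGFP-NP against MPLA 9, with 0 called lower, beside 24.4% and 19.6% of all genes called. All of these calls were lost with the nearly identical pairs merged. Of the 12, Alox15, Ccl24 and Ear3 were above background in no library of either group, as was Ear3 of the 9. Egr2 was higher by 3.62 ± 0.714 and 3.23 ± 0.530 (adjusted p = 0.0174 and 0.00693, edgeR), and for IRF5-NP that call ended without any library but IRF5-NP 4 (3.24 to 4.12), and with the fibroblast markers as a covariate the difference was 0.08. Against IL4, edgeR called 0 in either nanoparticle group (7 and 8 of the 21 at an unadjusted p under 0.05; DESeq2 called 4 and 7), and the medians were -1.03 for IRF5-NP and -1.34 for eGFP-NP beside -0.14 and -0.08 over all genes, with 5 and 6 of the 21 lower without overlap, beside 4.38% and 6.9% of all genes, and 1 and 0 higher without overlap. Between IRF5-NP and eGFP-NP both tools called 0 (1 at an unadjusted p under 0.05 in edgeR, median 0.36), and Ccl8 was called with the covariate (1.98, from 1.01). With the covariate 10 were called lower in MPLA against IL4, where 13.7% of all genes were called, and 9 higher and 2 lower in IRF5-NP and 12 higher and 1 lower in eGFP-NP against MPLA. The genes with the smallest p against IL4 were Ccl24, an eosinophil chemokine above background in 0 nanoparticle libraries and in 4 of 4 IL4 libraries, and Retnla, above it in 2 of 3 IRF5-NP, 4 of 4 eGFP-NP and 4 of 4 IL4 samples.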

How the data were processed

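Deposited values were raw counts of barcoded probes per gene for 754 genes, with 6 positive and 8 negative controls, and the authors' own normalization (housekeeping genes, log2) is not in them. The lane and cartridge of each sample are not given in the sources used here. Groups were taken from the labels. Counts of eGFP-NP 1 and 2 (chi-square per degree of freedom 1.09) were summed; 4 other pairs were nearly as close (up to 2.56, beside 41.4 to 1250 for the other 16 pairs) and were kept separate. Background was the mean of the negative controls plus 2 SD. Each of 6 pairs of groups was fitted over all 754 genes with edgeR 4.0.16 (R 4.3.3; TMM scaling, quasi-likelihood test, two-sided, no covariate, no filter), and a gene was called at a Benjamini-Hochberg adjusted p under 0.05. Levels are log2 CPM with a prior count of 2. The code of the fit was run on simulated counts, which says nothing about the spread of these samples. Alternatives used limma 3.58.1, DESeq2 1.42.0, the methods' t-test, other scalings and filters, background subtraction, a fibroblast covariate, a replicate block and each library left out. Same-numbered IRF5-NP and eGFP-NP libraries deviated together (correlations of 0.894, 0.890 and 0.898). In both groups libraries 1 and 2 are low in fibroblast markers and library 4 is high, and only same numbers were compared. These values therefore cannot tell a pairing by number from that shared split. The block, fitted with all libraries separate, left 0 genes called between these groups, as without it.

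The genes described and the gene lists were chosen with earlier results of these data known. Of each list, the genes called in a comparison were named (at most the 5 with the largest difference) or, with none called, the 2 with the smallest p, and like genes were the 5 with the highest Pearson's r. Ptgs2, Hpgds, Cbr1, Ptger2, Stat6 and Nr1h3 were also described as list members, chosen after their values were seen. Gene names are those deposited, of which 744 matched a RefSeq symbol. Promoter windows are those of RefSeq (GRCm38.p6). Proteins and probe sequences were not used here. Some genes that this rule selects are not reported here.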

Additional observations from a re-analysis of the deposited data

Results flagged for a closer look

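Pparg in IL4 2 stood at 5.55 log2 CPM, far from the other IL4 libraries at 8.53, 8.75 and 9.03. The gap to its nearest neighbour was 0.857 of the range of the group, above the limit of 0.829 used to screen groups of 4 samples. The screen covered 8 groups of 4 libraries, for the trio and the ratio of Ptgs1 to Hpgd, and chance flags about 1 in 20. As Pparg was chosen with these values known, this describes the library and tests nothing about the gene. Fibroblast markers were high in IL4 2 (11.0), as they were in IL4 1 and IL4 4, where Pparg was not low. The part of either in this value was not tested.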

How the results depend on the processing

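No called difference of Pparg, Ptgs1 or Hpgd changed sign under the alternatives. Genes called in MPLA against IL4 numbered 199, and 125 with background subtracted, 119 by the methods' t-test, 21 with Benjamini-Yekutieli adjustment, 123 with all groups in 1 fit, 20 with nearly identical pairs merged, 103 with the fibroblast covariate, 95 with the replicate block and 74 to 295 with a library left out. For IRF5-NP against MPLA (184) they were 52 by total count, 304 by upper quartile, 109, 388 by DESeq2, 9 by Benjamini-Yekutieli, 0 merged, 471 with the covariate, 0 with the block and 55 to 566. For eGFP-NP against MPLA (148) they were 228 by DESeq2, 50 by Benjamini-Yekutieli, 50 in 1 fit, 0 merged, 420 with the covariate, 81 with the block and 74 to 428. From 0, IRF5-NP against IL4 reached 19 by DESeq2 and 2 in 1 fit. eGFP-NP against IL4 reached 53 by DESeq2, 17 in 1 fit, 6 with eGFP-NP 1 and 2 separate, 1 with background subtracted, by the t-test under either adjustment and merged, and 0 to 2 with a library left out. IRF5-NP against eGFP-NP reached 7 by DESeq2, 1 in 1 fit, 2 with libraries separate and 16 with the covariate. Hpgd between the cargoes (0.29) was 0.56 by housekeeping genes, 0.53 by upper quartile, -0.11 with background subtracted, 0.57 by limma and the t-test, 0.15 with libraries separate, 0.10 with the replicate block, -0.29 relative to pan-macrophage markers and 0.13 to 0.40 with a library left out. Ptgs1 there (-0.20) was 0.087 by limma and the t-test and -0.77 relative to the markers. Relative to these markers, eGFP-NP minus IL4 was -2.48 for Hpgd, 1.02 for Ptgs1 and 1.79 for Pparg (from 0.61), and Pparg between the cargoes -1.59 (from -0.71). In IRF5-NP against MPLA, Hpgd (-1.17) was -0.71 by upper quartile, -0.78 with a low-count filter and -1.88 with background subtracted, Ptgs1 (1.92) was 2.39, 2.31 and 2.24, and Pparg (3.16) was 0.58 with the covariate. In eGFP-NP against MPLA, Ptgs1 (2.02) was 2.34 by upper quartile, 2.27 with the filter and 2.43 relative to the markers, Pparg (3.75) was 4.22 with background subtracted and 4.12 with the covariate, and Hpgd (-1.55) was -1.94 and, relative to the markers, -1.08. With background subtracted, the log2 ratio of Ptgs1 to Hpgd differed by 4.78 for IRF5-NP against IL4, 0.66 against eGFP-NP and 4.75 against MPLA, and by 4.08 for eGFP-NP against MPLA. Of 282 differences of list genes (47 genes in 6 comparisons), 128 took both signs over the alternatives, of which 3 were called: Alox15 (-1.32 from 0.87, background subtracted) and Cd36 (-0.31 from 4.47) and Mrc1 (-0.04 from 3.14) with the covariate, all in IRF5-NP against MPLA. Ptgdr there, not called in the report's fit, was -6.11 from 0.28 with background subtracted. The causes were not tested. Of 1823 alternative values for the 86 differences of list genes that the rule named, 1483 kept direction and side of the threshold. The block used the replicate number, which is not known to pair any groups. Depth limits IRF5-NP 4, where Hpgd was below background.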
